A study of Mus musculus with 6 samples.

Results

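Colony stimulating factors and chemokines were read in EO771 cells, a mouse mammary tumour line, with and without recombinant lipocalin-2 (LCN2) protein. The set was chosen by gene name and has 10 members: Csf1, Csf2, Csf3, Cxcl1, Cxcl2, Cxcl5, Cxcl16, Ccl2, Ccl7 and Ccl20. Of these, 8 were found among the 19832 genes of the deposited table, and Csf3 and Ccl7 were not analysed here. All 8 had a mean of at least 1 FPKM (a density of sequenced fragments, scaled for transcript length and library size), and 0 fell under 1 FPKM in any library. The lowest single value was 1.35 FPKM, for Ccl20 in control replicate 1. The names were proposed with the results of this same comparison known, so the members' differences between groups are a description. No p-value is given for a member, and where a member is said to be called or not in the fit over all genes, this too describes the values and is no independent test.

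The 3 control libraries came from EO771 cells labelled only as control, and the 3 LCN2 libraries from EO771 cells labelled with the treatment LCN2, a secreted protein that binds iron carriers, given here in recombinant form. The labels give no dose, time, vehicle or passage. They do not say that replicates were separate cultures, so the spread behind every p-value may be only technical. All 6 libraries come from 1 cell line, without cells of a host.

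Colony stimulating factors are secreted proteins that keep blood cell precursors and mature myeloid cells alive and make them divide. Chemokines are small secreted proteins that bind G protein-coupled receptors on leukocytes and draw them along a gradient. Tumour cells are a known source of both kinds of signal, which act on macrophages, monocytes, neutrophils and lymphocytes around them. Many of these genes have short-lived mRNAs and are known to respond to the transcription factor NF-kB.

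The sequences that many cytokine mRNAs share are shown first, because they are features of the members that the choice of names did not use. AU-rich elements are repeats of the pentamer ATTTA (written in DNA letters) in the 3′ untranslated region, or UTR, where decay factors such as those of the Zfp36 family bind and shorten the life of the mRNA. In GENCODE M21 the Csf2 transcript carried 9 ATTTA matches in a 3′ UTR of 317 bases, or 28.4 per kb, and only 1 of 9710 expressed genes with a 3′ UTR of at least 100 bases had a higher density. The longer motif TTATTTATT occurred in Csf2, Cxcl1 and Cxcl2, 3 of 8 members, and in 7.51% of those 9710 genes. Stretches of 30 bases around it follow, 5′ to 3′ on the sense strand, with TTATTTATT in capitals.
Csf2: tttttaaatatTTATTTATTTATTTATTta
Cxcl1: atttatttatgtatTTATTTATTccacaaa
Cxcl2: atttatttatctatgtatTTATTTATTtat
In Csf2 the capitals run together because copies of the motif overlap.

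ATTTA density split the 8 members widely. It was 15.0 per kb in Cxcl2, 11.8 in Cxcl1, 8.57 in Ccl20, 4.5 in Cxcl5 and 3.64 in Ccl2. Csf1, with 1.89 per kb, and Cxcl16, with 1.41 per kb, were close to the median of 1.37 per kb over the 9710 genes. A match is a description of the letters and shows neither binding nor decay.

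Promoter windows from RefSeq (GRCm38.p6) were found for 5 members, Csf1, Csf2, Cxcl1, Cxcl2 and Ccl20. The 250 bases before the start were searched on both strands with the NF-kB consensus, the 10-base site that NF-kB dimers bind. It was present in Csf1, Cxcl1, Cxcl2 and Ccl20, and in 7.25% of all 32851 windows of this length. These 4 windows are shown in part because they place the match in each gene, 5′ to 3′ in the direction of transcription, with the consensus in capitals.
Cxcl1, chr5:90891115-90891214, plus strand: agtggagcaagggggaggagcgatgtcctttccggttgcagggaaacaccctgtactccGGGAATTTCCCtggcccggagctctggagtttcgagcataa
Cxcl2, chr5:90903769-90903868, plus strand: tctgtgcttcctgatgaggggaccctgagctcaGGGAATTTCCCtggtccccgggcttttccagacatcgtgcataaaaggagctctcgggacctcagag
Ccl20, chr1:83116636-83116735, plus strand: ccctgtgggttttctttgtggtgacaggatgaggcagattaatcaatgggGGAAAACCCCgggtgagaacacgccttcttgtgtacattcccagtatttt
Csf1, chr3:107760550-107760649, minus strand: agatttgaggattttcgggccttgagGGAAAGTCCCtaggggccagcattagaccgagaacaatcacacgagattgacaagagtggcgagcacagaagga
In Cxcl1 and Cxcl2 the capitals hold a pair of overlapping matches, GGGAATTTCC and GGAATTTCCC, which begin 71 and 70 bases before the Cxcl1 start and 97 and 96 bases before the Cxcl2 start. Ccl20 has GGAAAACCCC at 80 bases and Csf1 has GGAAAGTCCC at 154 bases. The Ccl20 and Csf1 matches, and GGAATTTCCC, fit the consensus only when read on the opposite strand. The pair in Cxcl1 and Cxcl2 is thus the same stretch matched on each strand. The Csf2 window had no match, but it ends upstream of the first base of Csf2 in GENCODE M21 (54249667), so it does not cover that start. The motif TGANTCA, bound by AP-1 factors, was in none of the 5 windows and in 6.75% of all windows.

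Among the colony stimulating factors, Csf2 had the largest difference between groups and Csf1 a smaller one with little spread. Csf2 encodes GM-CSF, which supports granulocytes, macrophages and dendritic cells (chromosome 11, 54247271 to 54249667, GRCm38). It was at 10.6, 23.6 and 13.6 FPKM in control replicates 1, 2 and 3 and at 57.0, 35.5 and 63.0 FPKM in LCN2 replicates 1, 2 and 3. Every LCN2 library lay above every control, with control replicate 2 the highest control and LCN2 replicate 2 the lowest treated library. The group means were 15.9 ± 6.84 and 51.8 ± 14.4 FPKM (SD, n = 3 in each group), 3.25 times apart. On the log2(FPKM + 1) scale, after scaling between libraries, the difference was 1.74 with a standard error (SE) of 0.29. This was the difference of rank 4 from the top among 10309 tested genes. In level, Csf2 stood at the percentile 55.7 of tested genes in control cells and 86.8 in LCN2 cells. Without LCN2 replicate 1 the difference was 1.65 and the gene was no longer called, where called means a Benjamini-Hochberg adjusted p under 0.05 in limma over all tested genes. Exons of Csf2 overlap those of an annotated antisense gene, Gm12223, and the treatment of strand is not given in the sources used here.

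Csf1 encodes M-CSF, the growth and survival factor of macrophages that acts through the receptor Csf1r (chromosome 3, 107741048 to 107760469). Its control values were 12.3, 14.6 and 12.8 FPKM and its LCN2 values 17.7, 17.2 and 19.1 FPKM. The groups did not overlap. The highest library exceeded the lowest by a factor of 1.18 among controls and 1.11 among LCN2 libraries. The means were 13.2 ± 1.19 and 18.0 ± 0.969 FPKM (n = 3 each), and the log2 difference was 0.48 (SE 0.06). Leaving out each library in turn gave 0.43 to 0.52, and Csf1 was called in all 6 of these fits.

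**Figure D1:**
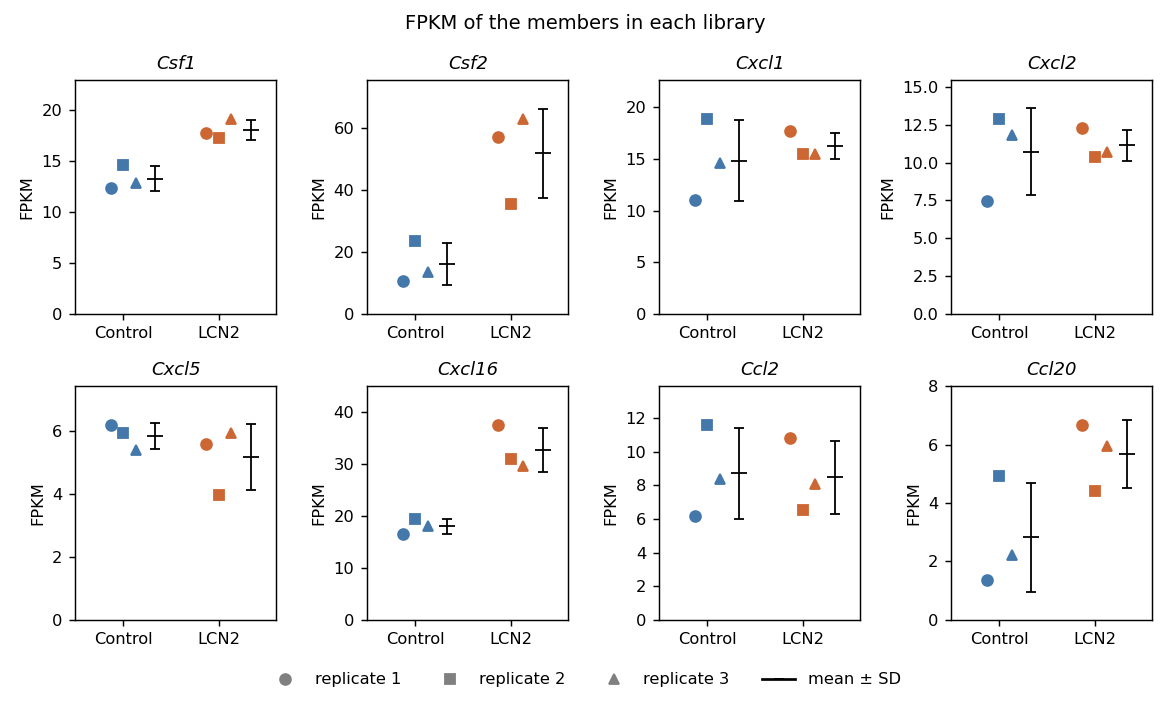
FPKM (vertical axis, from 0) of each of the 8 members in the 3 control libraries (blue) and the 3 LCN2 libraries (orange), with marker shape for the replicate number and the group mean ± SD (n = 3) in black. All LCN2 libraries sit above all controls for Csf1, Csf2 and Cxcl16, while the groups overlap for the other 5.

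Among members, the CXC chemokines that carry the ELR motif and attract neutrophils through the receptor Cxcr2 (Cxcl1, Cxcl2 and Cxcl5) had overlapping groups throughout. Cxcl1 (chromosome 5, 90891241 to 90893115) was at 11.0, 18.9 and 14.6 FPKM in the controls and at 17.7, 15.5 and 15.5 FPKM with LCN2. In these values as deposited, the treated libraries lay inside the range of the controls, and the groups also overlapped after scaling. Means were 14.8 ± 3.97 and 16.2 ± 1.26 FPKM, with a log2 difference of 0.21 (SE 0.15) that was 0.04 without control replicate 1 and 0.37 without control replicate 2. Cxcl2 (chromosome 5, 90903871 to 90905938) was at 7.45, 12.9 and 11.8 FPKM in the controls and at 12.3, 10.4 and 10.7 FPKM with LCN2. Its treated libraries too lay within the control range as deposited, with overlap after scaling. The difference of 0.13 (SE 0.17) turned to -0.08 when control replicate 1, the lowest control, was left out. Cxcl5 (chromosome 5, 90759360 to 90761624) was at 6.18, 5.92 and 5.37 FPKM in the controls and at 5.57, 3.96 and 5.93 FPKM with LCN2. Only LCN2 replicate 2 lay below the controls. The difference of -0.11 (SE 0.13) was 0.05 without that library.

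Cxcl16 is made as a membrane protein that can be shed and that binds Cxcr6 on T and natural killer T cells. It had the highest control mean of the members. Cxcl16 (chromosome 11, 70453983 to 70459984) was at 16.6, 19.5 and 18.1 FPKM in the controls and at 37.6, 31.0 and 29.6 FPKM with LCN2. The lowest treated library was above the highest control. Means were 18.1 ± 1.49 and 32.7 ± 4.30 FPKM (n = 3 each), and the log2 difference was 0.88 (SE 0.09), with 0.78 to 0.94 when 1 library was left out and a call in all 6 of those fits. Exons of Cxcl16 overlap those of Zmynd15 on the opposite strand, and Zmynd15 was itself at 0.498 ± 0.0806 FPKM in controls and 0.982 ± 0.195 FPKM with LCN2.

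Of the CC chemokines, Ccl2 covered almost the same range in both groups and Ccl20 had a higher mean with LCN2, with overlap. Ccl2 (chromosome 11, 82035571 to 82037453) attracts monocytes through Ccr2 and was at 6.17, 11.6 and 8.36 FPKM in the controls and at 10.8, 6.53 and 8.08 FPKM with LCN2. As deposited, all treated libraries lay within the range of the controls, and the groups overlapped after scaling. The difference was 0.04 (SE 0.21), and it was -0.15 without control replicate 1, -0.14 without LCN2 replicate 1 and -0.02 with values as deposited.

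Ccl20 (chromosome 1, 83116766 to 83119167), the ligand of Ccr6 on lymphocytes and dendritic cells, was the lowest member in controls. Its values were 1.35, 4.93 and 2.22 FPKM there and 6.68, 4.40 and 5.95 FPKM with LCN2. Control replicate 2 exceeded LCN2 replicate 2, so the groups overlapped. Means were 2.84 ± 1.87 and 5.68 ± 1.16 FPKM, and the log2 difference of 0.95 (SE 0.30) was not called. Without control replicate 2 it was 1.29 and without LCN2 replicate 2 it was 1.10, and Ccl20 was called in both of those fits and in 0 of the other 4 that left out 1 library.

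**Figure D2:**
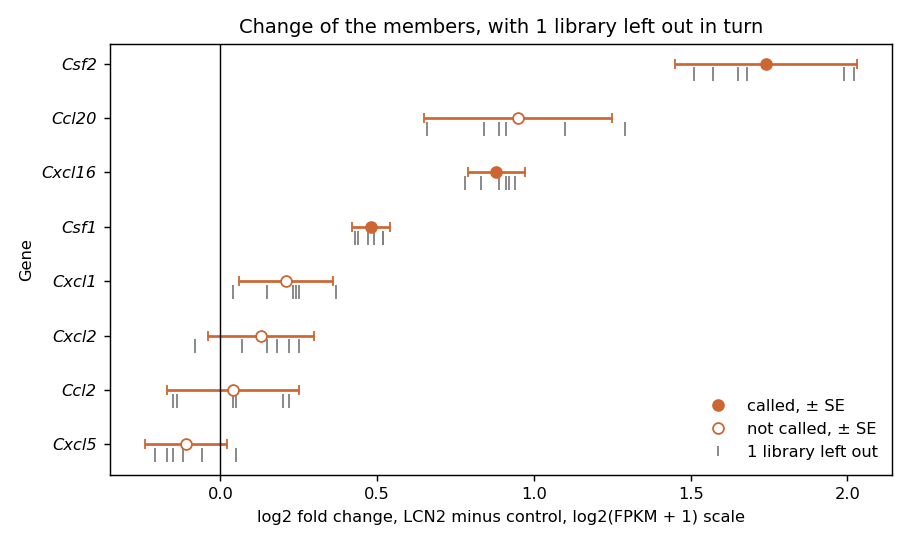
Log2 fold change (LCN2 minus control, log2(FPKM + 1) scale, horizontal axis) of each of the 8 members with its standard error, filled where called, and the 6 estimates with 1 library left out as grey ticks. Csf2 (1.74), Ccl20 (0.95), Cxcl16 (0.88), Csf1 (0.48) and Cxcl1 (0.21) keep all ticks above 0, with the lowest of Cxcl1 at 0.04. Ticks of Cxcl2, Ccl2 and Cxcl5 fall on both sides of 0.

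In all, 3 of the 8 members (Csf1, Csf2 and Cxcl16) were called higher, where 11.8% of the 10309 tested genes were, and 0 were called lower, where 9.73% were. The same 3 were those whose LCN2 libraries all exceeded all controls after scaling, as was the case in 23.0% of tested genes, with 21.6% the other way. Nothing is read from these shares, since the members were named with this contrast known. The median log2 difference of the 8 was 0.35, beside 0.0008 over all tested genes. In these bulk samples, more or fewer cells that express a gene and more or less RNA per cell cannot be told apart.

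FPKM is per length, so levels can be compared between genes if the deposited values are FPKM, a unit inferred from the values. In controls the means ran from Cxcl16 (18.1 FPKM) through Csf2 (15.9), Cxcl1 (14.8), Csf1 (13.2), Cxcl2 (10.7), Ccl2 (8.69) and Cxcl5 (5.82) to Ccl20 (2.84). Among these neighbours the libraries' ranges were apart only between Cxcl5 and Ccl20. With LCN2 the order was Csf2 (51.8), Cxcl16 (32.7), Csf1 (18.0), Cxcl1 (16.2), Cxcl2 (11.1), Ccl2 (8.48), Ccl20 (5.68) and Cxcl5 (5.15). There the ranges were apart between Cxcl16 and Csf1 and between Cxcl1 and Cxcl2, and overlapped between the other neighbours.

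The members differed in how much they varied among the untreated libraries. This measure leaves out the LCN2 samples, but the comparison known when the members were named used these same controls. The spread is therefore a description too. The highest control exceeded the lowest by a factor of 3.65 for Ccl20, 2.24 for Csf2, 1.87 for Ccl2, 1.74 for Cxcl2 and 1.72 for Cxcl1. For Csf1, Cxcl16 and Cxcl5 it did so by 1.18, 1.18 and 1.15. The SD of the 3 controls on the log2(FPKM + 1) scale after scaling was larger for Ccl20 (0.64) than in 99.5% of tested genes, for Csf2 (0.51) than in 99.3%, and for Cxcl1 (0.33) than in 98.1%. Csf1 (0.07) and Cxcl16 (0.08) lay near the median gene (0.07). These shares were not matched for level, and Ccl20 stood at the percentile 11.6 of tested genes in control cells.

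After scaling, control replicate 2 was the highest control for 7 of the 8 members and control replicate 1 the lowest for 7, against 35.2% and 36.2% of tested genes. Among the treated libraries, LCN2 replicate 2 was the lowest for 7 members, against 39.8% of tested genes. The exceptions were Cxcl5 among the controls and Cxcl16 among the LCN2 libraries.

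The 4 members with the densest ATTTA, Csf2, Cxcl2, Cxcl1 and Ccl20, were all among the 5 with a large control spread, and Ccl2 (3.64 per kb, SD 0.36) was the other. Cxcl5, denser than Ccl2, had a control SD of 0.09. This is a description over 8 genes measured in the same libraries and was not tested.

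**Figure D3:**
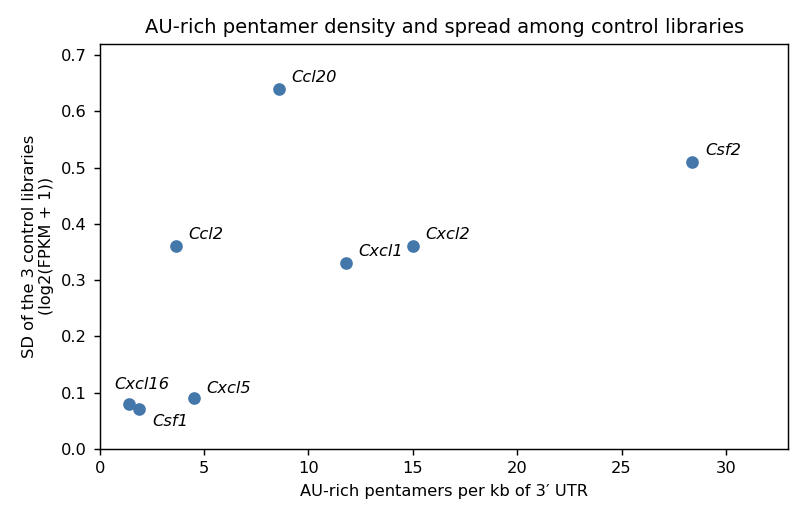
AU-rich pentamers (ATTTA) per kb of 3′ UTR (horizontal axis) against the SD of the 3 control libraries on the log2(FPKM + 1) scale (vertical axis) for the 8 members, 1 point a gene. Csf1, Cxcl16 and Cxcl5 lie at the lower left with SDs of 0.07 to 0.09, Ccl20 is highest at 0.64, and Csf2 is farthest right at 28.4 per kb.

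Cxcl1, Cxcl2 and Cxcl5 lie in a cluster of CXC chemokine genes on chromosome 5, whose other genes were called in both directions or not called. The 6 genes analysed there span 146.6 kb in the order Cxcl5, Ppbp, Cxcl3, Cxcl15, Cxcl1 and Cxcl2. Cxcl3, another ELR chemokine that attracts neutrophils, was at 9.80, 21.5 and 19.8 FPKM in the controls and at 31.1, 27.7 and 34.2 FPKM with LCN2. All treated libraries exceeded the controls, and Cxcl3 rose by 0.95 on the log2 scale (SE 0.25, limma adjusted p = 0.033). The call did not survive leaving out control replicate 3, or either of LCN2 replicates 1 and 3 (0.63 to 1.12 over the 6 such fits), nor a fit with no filter on low values. Cxcl15, whose product is best known from lung epithelium, lies next to Cxcl3 and went the other way. It was at 7.82, 8.71 and 8.51 FPKM in the controls and at 4.73, 4.41 and 4.26 FPKM with LCN2, a log2 difference of -0.72 (SE 0.06, limma adjusted p = 0.0032) whose call held whichever library was omitted. Ppbp, the platelet basic protein gene, was not called (0.11, SE 0.08).

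Reads of near relatives in this cluster may have been split in ways the table does not show. The coding sequences of Cxcl2 and Cxcl3 were identical at 89.7% of aligned bases, and their transcripts share an exact stretch of 110 bases. For Cxcl1 the identity was 78.8% with Cxcl2 and 75.7% with Cxcl3, with exact stretches of at most 23 bases. The values of Cxcl2 and Cxcl3 are therefore uncertain to the extent that shared reads were assigned to either.

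**Figure D4:**
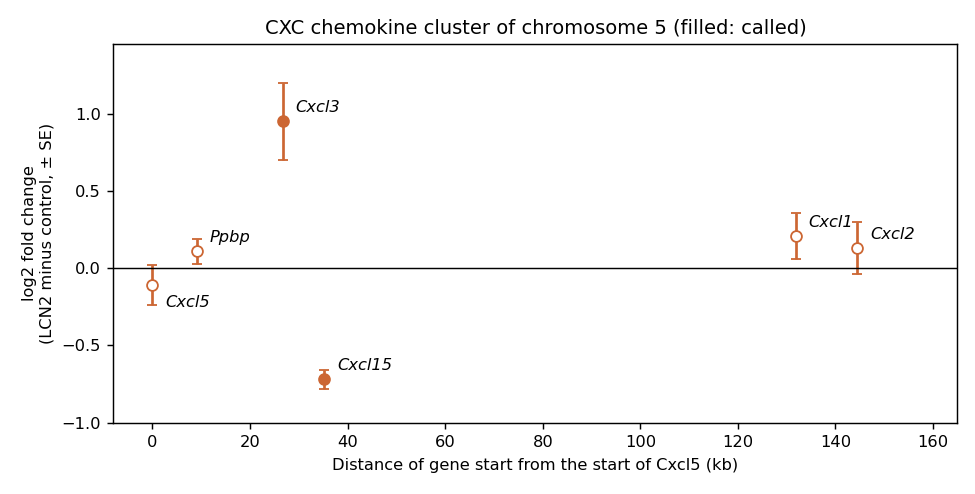
Log2 fold change (LCN2 minus control, ± SE, vertical axis) of the 6 analysed genes of the chromosome 5 cluster against the distance of their starts from the start of Cxcl5 in kb (horizontal axis), filled where called. Cxcl3 (0.95) and Cxcl15 (-0.72) lie next to each other on opposite sides of 0, and Cxcl5, Ppbp, Cxcl1 and Cxcl2 are close to it.

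Csf2 also has a close neighbour. Il3, which encodes another growth factor of myeloid cells, lies 15.6 kb from Csf2 and was listed at 0 in every library.

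Of the other chemokine genes, 7 of the 26 in the table reached a mean of 1 FPKM, and 14 were listed at 0 in every library. Among those 7, 2 rose and 2 fell, with a median log2 difference of 0.30. Of all 10309 tested genes, 11.8% were called higher and 9.73% lower. This list and those below were written with earlier results of these data known. Besides Cxcl3 and Cxcl15, Ccl25, known for drawing T cells to the thymus and gut, rose from 6.73 ± 0.392 to 8.15 ± 0.637 FPKM (0.30, SE 0.07, limma adjusted p = 0.028). Its call was lost in 5 of the 6 fits without 1 library, all but that without LCN2 replicate 2, and both with values as deposited and with no filter on low values. Its exons overlap those of Elavl1. Cx3cl1, a membrane-bound chemokine of monocytes and T cells, was at 17.6, 19.1 and 17.8 FPKM in the controls and at 13.1, 14.5 and 12.4 FPKM with LCN2. The groups did not overlap, and Cx3cl1 fell by 0.36 on the log2 scale (SE 0.06, limma adjusted p = 0.011), a call lost without LCN2 replicate 1. Cxcl16 and Cx3cl1, the chemokines of mice that are made with a membrane anchor, thus differed between the groups in opposite directions.

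Of 9 other growth factors of blood cells, 4 reached 1 FPKM, and 3 of these rose and 0 fell, with a median log2 difference of 0.29. The shares over all tested genes were 11.8% higher and 9.73% lower. Kitl, or stem cell factor, which mast cells and blood stem cells need through the receptor KIT, was at 62.9, 75.5 and 68.3 FPKM in the controls and at 91.5, 81.8 and 90.5 FPKM with LCN2. Each treated library exceeded each control. The rise was 0.41 (SE 0.07, limma adjusted p = 0.010), with the call lost without LCN2 replicate 1. Il34, the other ligand of the M-CSF receptor, rose from 22.4 ± 1.88 to 25.9 ± 0.506 FPKM (0.27, SE 0.05, limma adjusted p = 0.017). Thpo, which drives platelet formation, rose from 8.67 ± 1.19 to 10.5 ± 0.861 FPKM (0.31, SE 0.09, limma adjusted p = 0.044). Il34 and Thpo were called in only 2 of the 6 fits with 1 library omitted, those without replicate 2 of either group, and not with values as deposited. Across the 10 other processing settings Thpo was called in 3. Exons of both overlap those of other annotated genes. Flt3l, chosen after its values were seen as the remaining gene of the 4, was at 4.99 ± 0.345 and 5.30 ± 0.204 FPKM and was not called.

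Receptors for the members were at or near 0 in these cells. All 14 receptor genes in the table had means below 1 FPKM and 8 were listed at 0 in every library, Csf2rb, Csf3r, Cxcr1 and Ccr2 among them. Csf1r, the receptor of M-CSF, had the highest mean of these, with 0.333 ± 0.0957 FPKM in the controls and 0.248 ± 0.0447 FPKM with LCN2. Ackr3, a scavenging receptor, was at 0.0529 ± 0.0246 and 0.0602 ± 0.0521 FPKM. Cxcr2 and Ccr6 were not analysed here.

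Genes of the NF-kB system, whose proteins act on many chemokine promoters, were called higher in 14 of 17 tested and lower in 0, with a median difference of 0.41. Over all 10309 tested genes these shares were 11.8% and 9.73%, and the list was written with earlier results of these data known. Relb, a subunit of the noncanonical dimer, was at 8.17, 10.7 and 9.59 FPKM in the controls and at 20.8, 16.9 and 20.5 FPKM with LCN2 (1.02, SE 0.10, limma adjusted p = 0.0040). The treated libraries were all above the controls, with replicate 2 the lowest of them. Nfkbie, which encodes an inhibitor that holds NF-kB in the cytoplasm, rose from 3.57 ± 0.334 to 6.60 ± 0.5 FPKM (0.79, SE 0.07, limma adjusted p = 0.0037). Tnfaip3, or A20, which shuts the pathway off, rose by 0.69 (SE 0.09) and Nfkb2 by 0.51 (SE 0.05), with limma adjusted p = 0.0060 and 0.0040. These 4 genes were called whichever single library was left out. The count of 14 became 7 when fitted without LCN2 replicate 1 and 8 without control replicate 3 or LCN2 replicate 3. Exons of Nfkb2 overlap those of other annotated genes.

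Of 12 factors that bind AU-rich elements or otherwise control the decay of cytokine mRNAs, 3 rose and 1 fell, with a median of 0.13. Among all tested genes 11.8% were called higher and 9.73% lower. Arid5a, an RNA-binding protein known to stabilise inflammatory mRNAs, rose from 5.32 ± 2.04 to 9.59 ± 1.54 FPKM (0.85, SE 0.22, limma adjusted p = 0.036). Zfp36l1, of the family that promotes decay, rose by 0.28 and Rc3h2, or Roquin-2, by 0.23, while Hnrnpd, also called AUF1, fell by 0.19 (limma adjusted p = 0.014, 0.033 and 0.020). All 4 calls were lost on leaving out replicate 1 of either group or control replicate 3. Without LCN2 replicate 3, Zfp36l1 alone of the 4 was called, and Rc3h2 was not called without control replicate 2. Zfp36l1 and Rc3h2 were not called with values as deposited, nor Arid5a and Rc3h2 with no filter on low values. Exons of Zfp36l1 and Hnrnpd overlap those of other genes.

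Genes for the shedding and surface presentation of chemokines gave 3 rises and 1 fall among 6 tested, with a median of 0.07. Rises made up 11.8% and falls 9.73% of all tested genes. Adam10, a protease that releases Cxcl16 and Cx3cl1 from the membrane, fell from 20.8 ± 0.915 to 17.8 ± 0.334 FPKM (-0.15, SE 0.04, limma adjusted p = 0.042), a call lost in each of the 6 fits without 1 library. The heparan sulfate carriers Sdc4 and Sdc1 rose by 0.32 and 0.21 and the protease inhibitor Timp3 by 0.30 (limma adjusted p = 0.017, 0.022 and 0.034). None of these 3 was called when LCN2 replicate 1 or 3 was omitted. Sdc1 and Timp3 were also not called without control replicate 3 or with values as deposited, nor Timp3 without control replicate 1 or with no filter on low values, and Adam10 was not called without the variance trend. Exons of Timp3 overlap those of Syn3.

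**Figure D5:**
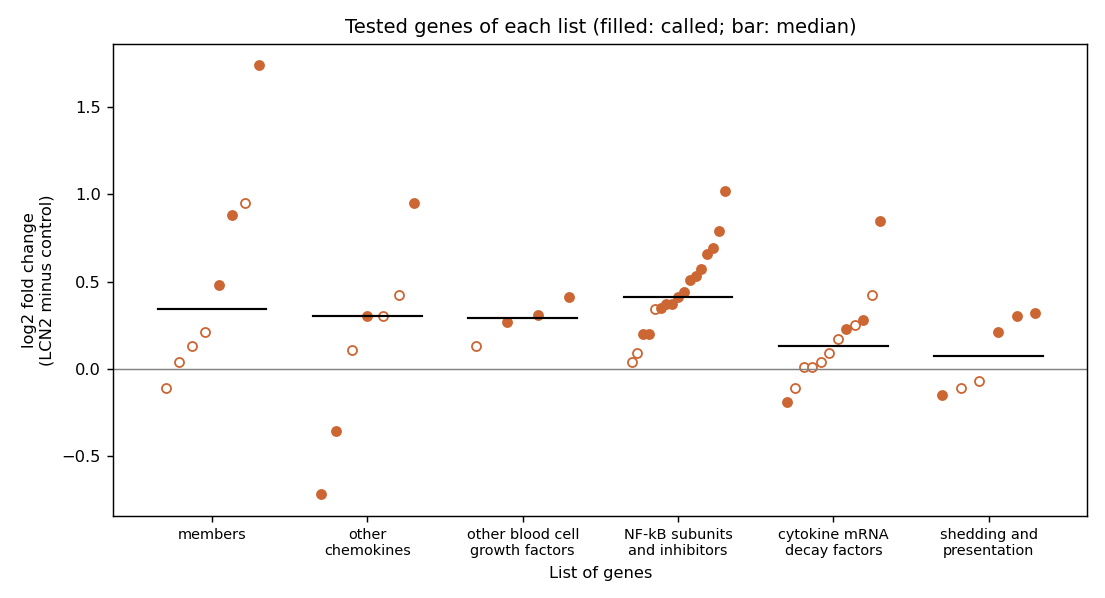
Log2 fold change (LCN2 minus control, vertical axis) of every tested gene in 6 lists, 1 point a gene, filled where called, with a bar at each list's median. The 17 NF-kB genes lie above 0 with a median of 0.41, while other chemokines range from -0.72 (Cxcl15) to 0.95 (Cxcl3).

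Genes with a profile like that of a member were ranked by the root mean square difference between mean-centred log2(FPKM + 1) values over the 6 libraries. Predicted gene models, genes with clone or accession names and repeated gene names were left out. The profiles include the difference between groups, which was known when the members were named. For Csf2 the closest were Trib3 (0.11), Ankrd1 (0.16) and Slc6a9 (0.17). These went from 19.2 to 53.7, from 97.2 to 297 and from 5.57 to 16.2 FPKM in group mean. For Ccl20 the closest were Tsc22d3 (0.17), Sesn2 (0.18) and Ppp1r15a (0.19). These went from 28.6 to 44.7, from 12.1 to 21.6 and from 22.7 to 46.4 FPKM. The values in brackets are differences in profile on the log2 scale, with 0 for an identical profile, and exons of Slc6a9 and Ppp1r15a overlap those of other genes.

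The cells carried the keratin transcripts of an epithelial tumour line and few markers of other cells. Among those few, the fibroblast marker Dcn was above Krt8 and Krt19 in every library. Krt8, Krt18 and Krt19 were at 308 ± 7.37, 693 ± 31.0 and 228 ± 4.17 FPKM in controls, and Epcam at 16.4 ± 1.04 FPKM, but the epithelial cadherin gene Cdh1 was at 0.140 ± 0.0384 FPKM. Of the 9 epithelial markers, 7 were tested. Among these, 2 rose (Krt18 and Krt14) and 2 fell (Krt8 by 0.27 and Krt19 by 0.22 on the log2 scale). The shares over all tested genes were 11.8% and 9.73%. Krt8 was not called without LCN2 replicate 1, and the other 3 not without replicate 1 or 3 of either group (Krt14 also not without control replicate 2). Across the 10 other processing settings Krt18 was called in 4 and Krt14 in 5. Neither was called with values as deposited, with no filter on low values or without the variance trend. The mast cell genes Cpa3, Mcpt4, Tpsb2 and Fcer1a were listed at 0 in every library, as were Tyrobp and Cd52 of macrophages and Pdgfrb and Thy1 of fibroblasts, and Ptprc reached at most 0.0868 FPKM. Of 9 macrophage and monocyte markers in the table, 2 reached a mean of 1 FPKM over the 6 libraries. These were Cd68 (8.48 ± 1.02 and 9.09 ± 0.256 FPKM) and Cd14 (7.84 ± 0.914 and 9.58 ± 0.793 FPKM). Cd14 rose by 0.32 (SE 0.08, limma adjusted p = 0.033). That call was lost without replicate 1 or 3 of either group, with values as deposited and with no filter on low values. Itgam, under that mean, went the other way, at 1.34, 1.12 and 1.09 FPKM in controls and 0.706, 0.631 and 0.839 FPKM with LCN2. Lyz2 was also lower with LCN2 in mean (0.338 ± 0.0596 and 0.189 ± 0.0974 FPKM), and neither gene was tested. The summed level of all 9 was 16.9 to 20.9 FPKM in controls and 19.5 to 20.9 FPKM with LCN2. Of 5 fibroblast markers, Dcn (504 ± 30.8 and 595 ± 16.6 FPKM) and Pdgfra (4.30 ± 0.543 and 3.61 ± 0.220 FPKM) reached a mean of 1 FPKM. Dcn rose by 0.30 (SE 0.04, limma adjusted p = 0.0062). The part of these marker differences in the members' values was not tested. The summed level of the neutrophil, mast cell, lymphocyte and endothelial markers was at most 1.21, 0.153, 0.172 and 0.660 FPKM in any library.

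Each library summed to between 391569 and 410808 FPKM, and between 10251 and 10340 genes reached 1 FPKM. The number of reads is unknown, so no detection limit is given, and a listed 0 may stand for an estimate that failed. Over all genes the number called was 2216, and it was 267 without LCN2 replicate 1 and 3160 without LCN2 replicate 2.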

How the data were processed

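The authors deposited 1 table of a value per gene and library, named as raw counts; 0% of the values above 0 are whole numbers, and they were treated as FPKM, a unit inferred from the values. The genome build was GRCm38, per the submitters' processing notes, with aligner, quantifier and strand setting not given in the sources used here. The members and gene lists were chosen with earlier results of these data known, and the naming rule takes up to 4 called genes a list by adjusted p, or 2 by level where none was called, and markers at 1 FPKM.

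The 10309 genes whose 6 libraries averaged 1 FPKM or more were scaled by unweighted TMM (trimmed mean of M-values; trims of 0.3 and 0.05) and fitted with limma 3.58.1 in R 4.3.3 on log2(FPKM + 1), with a variance trend and no replicate term. Calls are at a two-sided Benjamini-Hochberg adjusted p under 0.05. Log2 differences are on this scale, which understates changes of low genes. Means ± SD are of FPKM as deposited. The fit was tested on simulated data. Gene positions, exon overlap and 3′ UTRs are from GENCODE M21 (1 transcript a gene, that with the longest coding part), and promoters are from RefSeq.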

Additional observations from a re-analysis of the deposited data

How the results depend on the processing

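The 3 members called higher remained 3 in count under other scalings, filters, pseudocounts and variance models, and 0 were called lower in any fit. With the replicate number as a block, Csf2 kept its difference of 1.74 but not its call, and other chemokines gave 0 rises and 1 fall, growth factors 0 rises, NF-kB genes 8 rises, decay factors 0 rises and 0 falls, and shedding genes 1 rise and 0 falls. That block called 181 genes higher and 81 lower in all. Same-numbered libraries did not deviate together (correlations of -0.22, -0.26 and 0.01), and no library correlated best with that of its own number. With 3 libraries in each group, such correlations cannot decide whether same-numbered libraries shared a batch.

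With values as deposited, 693 genes were higher and 1680 lower, in place of 1213 and 1003, Ccl2 was at -0.02, and other chemokines, growth factors, decay factors and shedding genes gave 1 rise each. With no filter on low values, 612 genes were lower, other chemokines gave 0 rises and decay factors 1. With a pseudocount of 0.1 in addition, chosen after seeing the data, other chemokines gave 1 rise and decay factors 1. Without the variance trend, shedding genes gave 0 falls.

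Leaving out 1 library gave 178 to 1658 genes higher and 89 to 1502 lower. Rises ranged from 0 to 2 for other chemokines, 0 to 3 for growth factors, 7 to 14 for NF-kB genes, 0 to 4 for decay factors, 0 to 3 for shedding genes and 2 to 4 for members. Falls ranged from 1 to 2 for other chemokines and 0 to 1 for decay factors. Differences ranged from 1.51 to 2.02 for Csf2, 0.66 to 1.29 for Ccl20, 0.04 to 0.37 for Cxcl1, -0.08 to 0.25 for Cxcl2, -0.21 to 0.05 for Cxcl5 and -0.15 to 0.22 for Ccl2. The marker Esr1, at 0.14, ranged from -0.09 (without LCN2 replicate 1) to 0.32. The cause of these shifts was not tested, beyond fewer libraries in the fit. Values of low genes cannot be weighed by depth, which is unknown.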

Other observations

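Ppbp had the highest mean level of the chemokines analysed here, with 62.6 to 75.4 FPKM over the 6 libraries, above every member in each control library. It was chosen after its values were seen, as were the next 3 genes. Cxcl10, an interferon-responsive chemokine of T cells, was at 5.38 ± 1.66 FPKM in controls and 7.09 ± 1.03 FPKM with LCN2 (0.42, SE 0.17, limma adjusted p = 0.10), and Ccl27a at 5.93 ± 0.696 and 7.21 ± 0.715 FPKM (0.30, SE 0.10, limma adjusted p = 0.071). Neither was called. Zfp36, or tristetraprolin, was at 15.0 ± 3.99 FPKM in controls and 19.1 ± 0.381 FPKM with LCN2 and was not called (limma adjusted p = 0.081). Its controls, at 10.7, 18.6 and 15.6 FPKM, had replicate 1 lowest and replicate 2 highest, the order of 7 of the 8 members, all but Cxcl5.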
